A study of Mus musculus with 4 samples.

Results

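The genes described here are those of respiratory complex I, the NADH:ubiquinone oxidoreductase of the inner mitochondrial membrane, and of the proteins that assemble it. Every gene whose symbol starts with Nduf was taken from the array's annotation, using probe sets with 1 symbol only. This gave 44 of 18193 named genes, on 88 of 34945 such probe sets. Of the 44 genes, 34 encode subunits, 8 are assembly factors (the Ndufaf genes), and 2, Ndufa4 and Ndufa4l2, carry the family name but are not counted as complex I subunits. Among the subunits, 6 are core subunits, 8 are accessory subunits of the peripheral arm, 19 are accessory subunits of the membrane arm, and 1 is the acyl carrier protein Ndufab1. Ndufs6 and Ndufa11 had only probe sets with several symbols and were not analysed here.

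RNA was measured on 4 oligonucleotide arrays of mouse tissue, 1 for each of 4 groups, hearts and muscles of d/d and f/f mice. By their label, d/d mice (called knockout here) are deficient in MnSOD in heart and muscle. MnSOD is the manganese superoxide dismutase of the mitochondrial matrix, encoded by Sod2. In these mice its floxed gene is deleted by an MCK-Cre transgene. Mice labelled f/f carry the floxed gene on both chromosomes and are called control here. The floxed gene is thus deleted in d/d where Cre is active and not deleted in f/f. The muscle creatine kinase promoter drives Cre in heart and skeletal muscle cells and not in the other cells of the tissue, and age, the muscle taken and the number of animals behind each RNA were not stated. With 1 array a group there was no replicate, so differences between arrays are given as descriptions with no error between animals.

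Complex I oxidises NADH and passes its electrons through a flavin and a chain of iron-sulfur clusters to ubiquinone, and it pumps protons across the membrane as it does so. The peripheral arm reaches into the matrix and holds the redox groups, and the membrane arm holds the proton pumps, whose core subunits are encoded by mitochondrial DNA. Heart and oxidative muscle are rich in the complex, it is a source of superoxide in the matrix, and iron-sulfur clusters are known targets of superoxide.

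Short promoter sequences are shown first, because motifs of factors known to act on respiratory genes were found in the windows of some members. RefSeq promoter windows of build GRCm38.p6, from 250 bases before to 50 bases after the annotated start, were at hand for 39 of the member genes, in 41 windows. They were searched on both strands for CGCATGCG (NRF1), CCGGAAGTG (the ETS family, which includes GABP), TCAAGGTCA (the ERR receptors) and AAGATGGCG (YY1), none of which contains another. In each sequence the capitals mark the match, and the sequence reads 5′ to 3′ on the strand of the gene.
Ndufa8, chr2:36049329-36049358, minus strand, NRF1: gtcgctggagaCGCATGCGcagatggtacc
Ndufaf5, chr2:140170652-140170681, plus strand, NRF1: agtcccgttggCGCATGCGcctaatagaaa
Ndufaf4, chr4:24897960-24897989, plus strand, NRF1: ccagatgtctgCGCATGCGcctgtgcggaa
Ndufs3, chr2:90904704-90904733, minus strand, ETS (reverse complement): ctgcacatttcCACTTCCGGtccgtgccct
Ndufs4, chr13:114388045-114388074, minus strand, YY1: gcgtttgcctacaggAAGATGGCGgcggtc
Ndufs7, chr10:80249462-80249491, plus strand, YY1: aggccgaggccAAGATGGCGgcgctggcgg
Ndufaf8, chr11:120098933-120098962, plus strand, YY1: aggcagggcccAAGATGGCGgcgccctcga
Ndufa9, chr6:126849097-126849126, minus strand, YY1: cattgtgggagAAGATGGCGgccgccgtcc
Ndufc1, chr3:51408915-51408944, minus strand, YY1: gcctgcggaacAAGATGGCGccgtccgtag

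At least 1 of the 4 motifs was present in 9 of 41 member windows (22.0%) and in 5.48% of all 32851 windows. The NRF1 letters were in 7.32% of member windows against 1.87% of all, the ETS letters in 2.44% against 2.03%, and the YY1 letters in 12.2% against 1.40%. The ERR letters were in none of the 41, and in 0.423% of all windows. All 5 YY1 matches lay after the annotated start, from base 11 to base 44, as did 55.1% of the windows with this match overall. The YY1 letters contain ATG, so a match after the start can overlap a translation start. The NRF1 match of Ndufaf4 lay at bases −112 to −105 from the start, and the 250 bases before that start are shown because Ndufaf4 is the only member whose match lies well upstream.
Ndufaf4, chr4:24897833-24898082, plus strand: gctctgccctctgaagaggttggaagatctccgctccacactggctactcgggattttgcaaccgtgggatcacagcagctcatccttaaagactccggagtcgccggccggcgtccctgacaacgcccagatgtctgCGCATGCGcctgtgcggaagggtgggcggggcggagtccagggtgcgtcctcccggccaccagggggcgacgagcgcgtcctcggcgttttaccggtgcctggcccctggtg

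The arrays were scaled to a common trimmed mean, and values are given as scaled intensity in arbitrary units. Signals below a floor of 7.51 were set to it, and each gene was read from its probe set with the highest mean signal. The array labels were set against Sod2 first. Its 4 probe sets read log2 −0.27, −1.22, −0.21 and −0.79 in knockout against control heart, and 0.06, −0.44, −0.14 and −0.31 in muscle. The larger heart differences were on dimmer probe sets (29.2 against 67.8 and 211 against 363). The brighter ones moved less, with 1927 against 2330 and 1859 against 2156 in heart. In muscle they read 1732 against 1668 and 1123 against 1236, so Sod2 RNA does not establish the label in muscle. The position of these probe sets in the gene was not examined. Both tissues carried their defining markers, with a summed signal of 8 cardiac muscle genes of 37995 and 37730 in knockout and control heart against 2438 and 2891 in muscle, and of 9 fast skeletal muscle genes of 77033 and 73064 in muscle against 73.4 and 109 in heart. In muscle, all 6 measured cardiac genes were lower in knockout, with a median of −1.75.

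In heart, most subunit genes had a lower signal in the knockout array than in the control array, and each difference was small. Of 34 subunits, 30 were below 0 on the log2 scale, with a median of −0.17 (0.889 of the control signal) and a range from −0.57 to 0.36. Without Ndufb4, which was at the floor in the knockout heart, these were 29 of 33 and a median of −0.17. Over all 13836 genes measured in heart, 54.6% were below 0 and the median was −0.05. Most subunits are bright on these arrays, and of 161 other genes with a mean signal at or above 2193, the lower quartile of the subunits, 61.5% were below 0, also with a median of −0.05. No subunit differed by 1.5-fold or more in either direction. Of all genes, dim ones among them, 13.3% were at least 1.5-fold lower and 11.2% at least 1.5-fold higher. Shares of genes at 1.5-fold, here and below, were not taken for bright genes alone. In bulk tissue fewer muscle cells and less of an RNA per cell cannot be told apart.

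**Figure D1:**
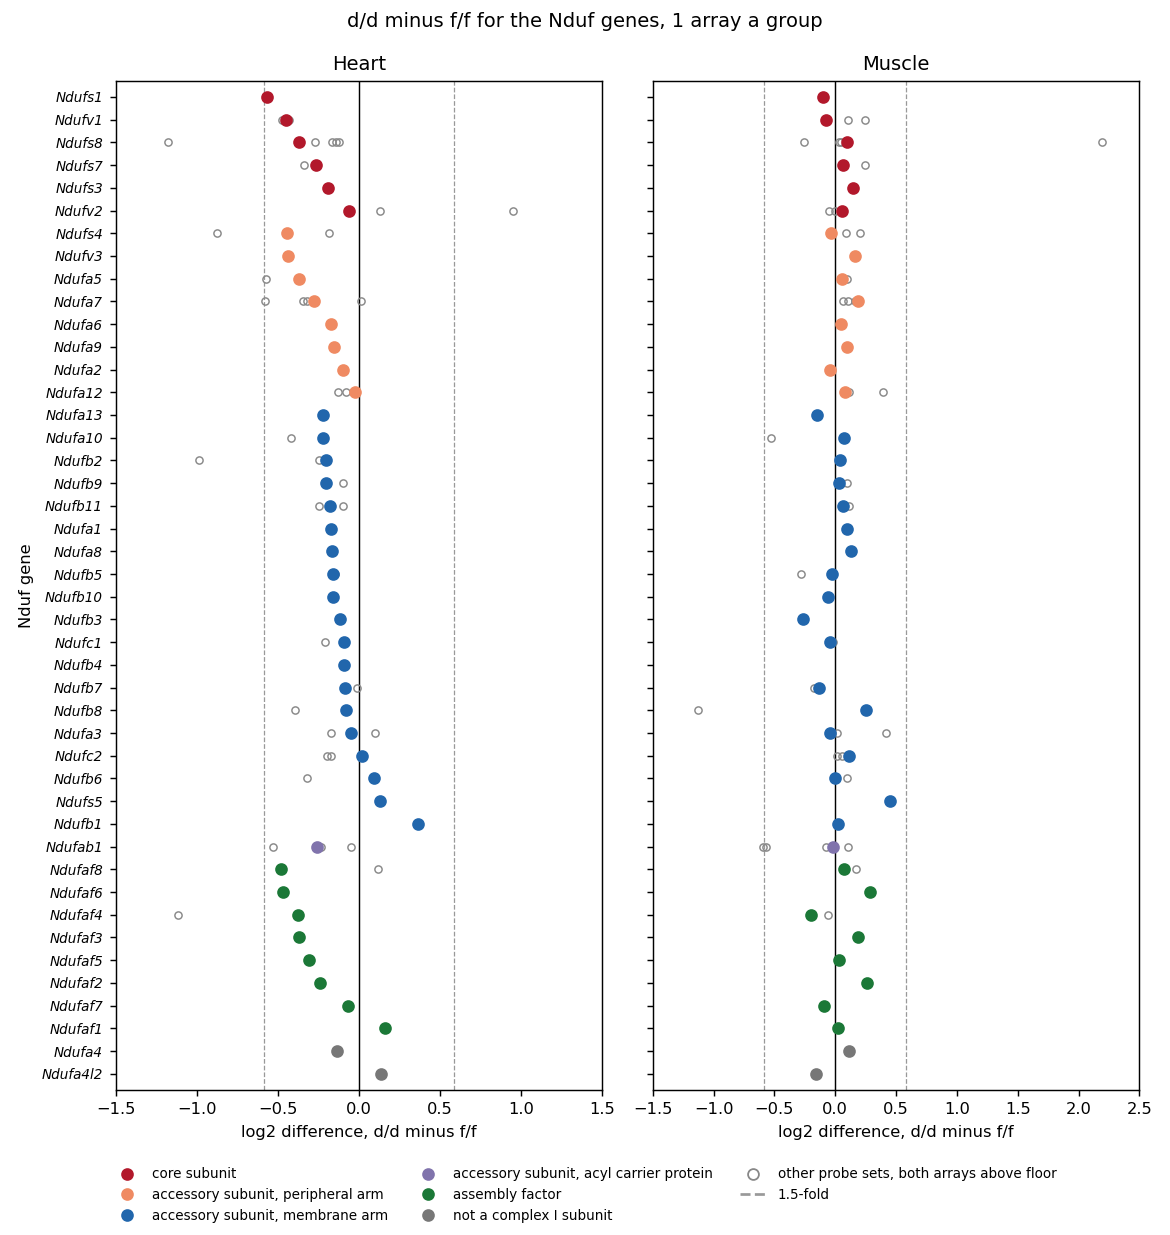
Log2 difference between knockout (d/d) and control (f/f) for the Nduf genes (rows), heart on the left and muscle on the right, each with its own horizontal scale. Filled points are genes coloured by role, open points are their other probe sets, the dashed lines mark 1.5-fold, and no error can be drawn with 1 array a group: in heart 30 of 34 subunits lie left of 0, in muscle 13 of 33, a number that was 23 with the values as deposited.

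The core subunits carry out catalysis, and all 6 measured were below 0 in heart, with a median of −0.32. Ndufs1, the largest subunit and a carrier of iron-sulfur clusters, read 1719 in knockout heart, 2546 in control heart, 2189 in knockout muscle and 2342 in control muscle. The knockout heart lay 1.48-fold below the control heart for this gene (log2 −0.57), the lowest difference of any subunit. It was also the lowest of the 4 arrays after scaling, but ranks of heart against muscle arrays can turn with the scaling. Ndufv1, which binds the flavin and takes the electrons from NADH, read 1767 in knockout heart, 2417 in control heart, 2371 in knockout muscle and 2496 in control muscle. Its 3 probe sets gave log2 −0.45, −0.47 and −0.43 in heart, and −0.07, 0.25 and 0.10 in muscle. The heart values of Ndufv1 thus lay close together across probe sets, while those in muscle had both signs.

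The other core subunits form the chain of clusters towards ubiquinone and the site where it binds. Ndufs8, which holds iron-sulfur clusters, read 3613 in knockout heart, 4676 in control heart, 3947 in knockout muscle and 3701 in control muscle, log2 −0.37 in heart. Ndufs7, which holds the last cluster before ubiquinone, read 2627, 3157, 3218 and 3077 in the same order, log2 −0.26 in heart. Ndufs3, a structural core subunit, read 2168, 2469, 3111 and 2813, log2 −0.19 in heart. For each of these genes the knockout heart was the lowest of the 4 arrays after scaling. Its place below the muscle arrays can turn with the scaling, whereas it was below the control heart in every setting tried.

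Ndufv2, the partner of Ndufv1 with an iron-sulfur cluster of its own, read 3455 in knockout heart, 3599 in control heart, 4484 in knockout muscle and 4304 in control muscle, log2 −0.06 in heart. Its other probe sets read log2 0.13 and 0.95 in heart, the latter from 2915 in knockout and 1508 in control heart, so the probe sets of Ndufv2 did not share a sign. Taking the median over probe sets turned its heart difference to 0.41, and Ndufv2 was the only core subunit to change sign over the 9 settings tried.

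Accessory subunits of the peripheral arm have no redox group and are known to stabilise the arm. All 8 were below 0 in heart, with a median of −0.23. Ndufs4, whose loss in mice gives a much used model of Leigh syndrome, read 1080 in knockout heart, 1471 in control heart, 1486 in knockout muscle and 1521 in control muscle. After scaling the knockout heart stood apart from the other arrays, which lay close together, but such a pattern across tissues depends on the scaling. The heart difference of Ndufs4 was log2 −0.45. Its other probe sets above the floor on both hearts gave −0.87 and −0.19. Ndufv3, which sits beside Ndufv1 and Ndufv2, read 2988, 4045, 3329 and 2982 in the same order, so its control heart was the highest array (log2 −0.44). Ndufa5, an accessory subunit of the module that binds ubiquinone, read 2281, 2951, 2496 and 2396, log2 −0.37, and −0.58 on its other probe set.

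Ndufa7 had 5 probe sets, with heart differences of log2 −0.28, −0.35, −0.58, −0.32 and 0.02. The probe set that did not go below 0 was the dimmest, at 301 in knockout and 298 in control heart. Ndufa2 and Ndufa12, the others of this group nearest to 0, were at −0.10 and −0.02 in heart, and Ndufa12 was above 0 in 1 of the 8 settings that measured it.

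The 19 accessory subunits of the membrane arm had a median of −0.12 in heart, with 15 below 0, or −0.14 with 14 of 18 below 0 without Ndufb4. The 4 above 0 were Ndufb1, Ndufs5, Ndufb6 and Ndufc2. Ndufb1, a small subunit, read 83.0 in knockout heart and 64.5 in control heart, log2 0.36, the highest of any subunit, and 106 and 104 in knockout and control muscle. Ndufs5, on the intermembrane side, read 2283, 2086, 2973 and 2170 in knockout heart, control heart, knockout muscle and control muscle, log2 0.13 in heart. Ndufb6 read 1822 in knockout heart and 1710 in control heart, log2 0.09, but −0.32 on its other probe set, and Ndufc2 was at 0.02. Ndufb1 and Ndufs5 were above 0 in all 9 settings, whereas Ndufb6 was below 0 in 1 and Ndufc2 in 3. Ndufb4 was at the floor on all arrays except control heart, where it read 7.99, so it gives no usable difference.

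Ndufab1, the mitochondrial acyl carrier protein, also serves fatty acid synthesis and the making of iron-sulfur clusters. It read 2903 in knockout heart, 3470 in control heart, 3102 in knockout muscle and 3135 in control muscle, log2 −0.26 in heart and −0.02 in muscle. In muscle its dim probe sets had both signs, from −0.60 to 0.10.

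By role, the heart medians ran from −0.32 for core subunits over −0.23 for peripheral to −0.12 for membrane accessory subunits. This order held in 7 of 9 settings, but in neither of those that changed how probe sets were chosen. With the median over probe sets, the peripheral median of −0.31 lay below the core median of −0.26. Without probe sets that can bind several transcripts (suffix _x_at or _s_at) they were −0.32 each. Over all probe sets above the floor on both hearts, the medians were −0.27 for core, −0.28 for peripheral and −0.17 for membrane accessory subunits.

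**Figure D2:**
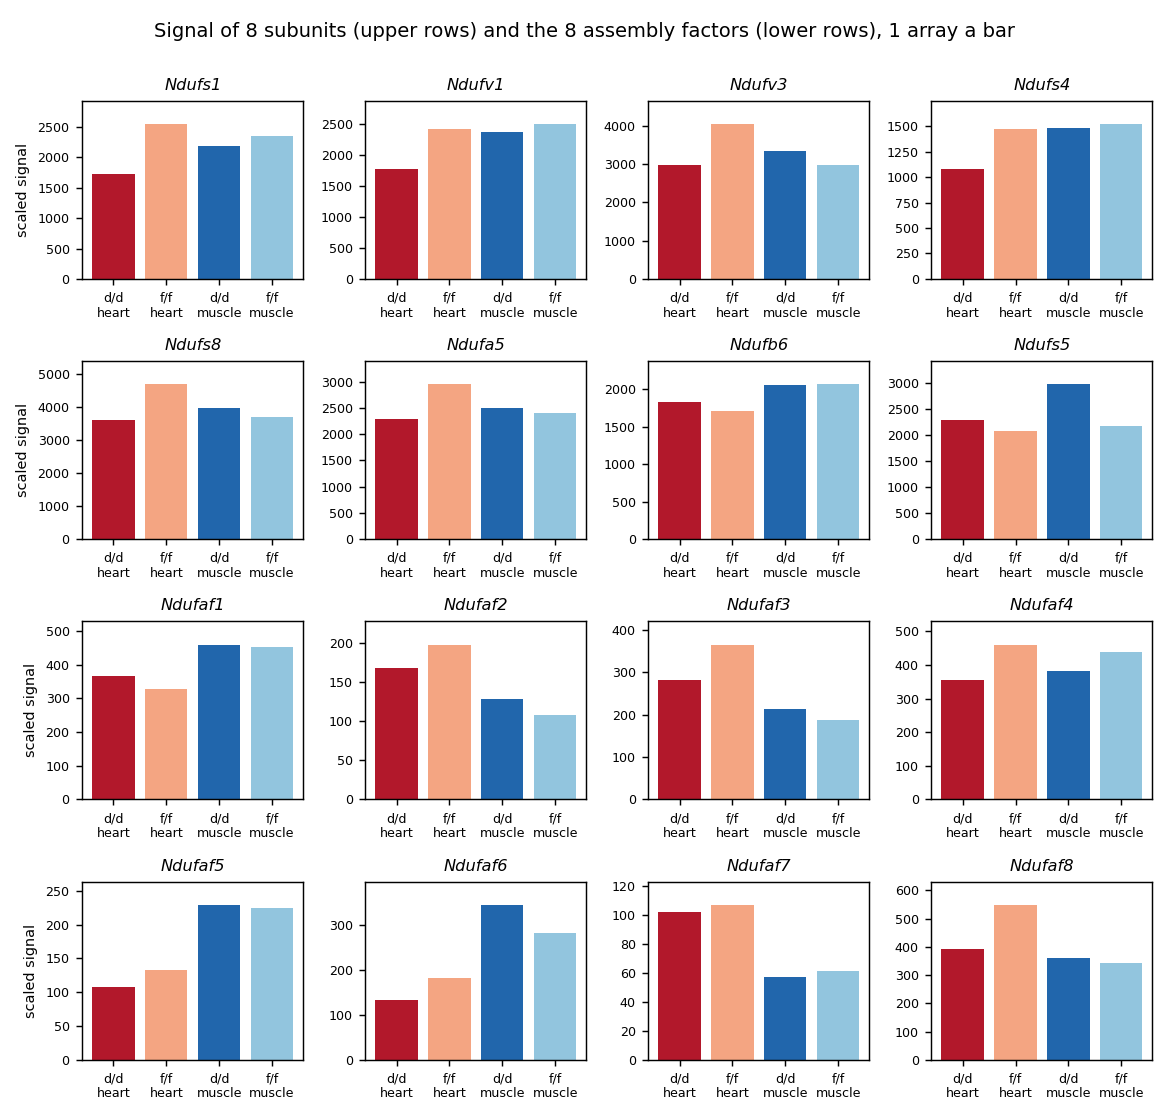
Scaled signal (arbitrary units, each vertical axis from 0 with its own scale) on the 4 arrays, 1 bar an array, for 8 subunits in the upper rows and the 8 assembly factors in the lower rows. The first 6 subunits have the lowest heart differences, with the knockout heart below the control heart, and Ndufb6 and Ndufs5 have it above.

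Reading every probe set rather than 1 per gene gave a like count. Of 70 subunit probe sets above the floor on both hearts, 62 were below 0, against 53.7% of all named probe sets. At 1.5-fold, 3 were lower and 1, of Ndufv2, was higher, against 12.3% and 10.7% of named probe sets. The 3 lower ones were dimmer than the main probe sets of their genes, at 10.3 in knockout and 23.4 in control heart for Ndufs8, 7.69 and 15.2 for Ndufb2, and 60.4 and 111 for Ndufs4. Of 20 subunits with at least 2 such probe sets, 15 had all of them below 0 and 0 had every probe set above 0. The same share was not taken over other genes, so how usual such a count is cannot be read here. Probe sets of the same subunit varied with an SD of 0.265 on the log2 scale, against 0.388 over 5375 genes. The differences of most single subunits were smaller than that SD.

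Assembly factors build the complex from modules and leave it once it is complete. In heart, 7 of 8 were below 0 with a median of −0.34, from −0.48 to 0.16. Of 3987 other genes in their range of mean signal, 78.7 to 406, 51.5% were below 0 with a median of −0.01. Ndufaf8, the partner of Ndufaf5, read 393 in knockout heart, 549 in control heart, 360 in knockout muscle and 343 in control muscle, log2 −0.48 in heart, but its other, dimmer probe set read 0.12. Ndufaf6, which acts early in assembly, read 133, 184, 346 and 284 in the same order, log2 −0.47 in heart and 0.29 in muscle. Both genes had the control heart above the knockout heart and the knockout muscle above the control muscle.

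Ndufaf3 and Ndufaf4 act together on the module that binds ubiquinone. Ndufaf4 read 355 in knockout heart, 460 in control heart, 381 in knockout muscle and 438 in control muscle, log2 −0.38 in heart and −0.20 in muscle. Its second probe set read 103, 222, 236 and 247, so the knockout heart lay far below the 3 other arrays (log2 −1.11 in heart, 2.16-fold). Ndufaf3 read 283, 365, 213 and 187, log2 −0.37 in heart and 0.19 in muscle.

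Ndufaf5, which hydroxylates Ndufs7, read 107 in knockout heart, 133 in control heart, 229 in knockout muscle and 225 in control muscle, log2 −0.31 in heart. Ndufaf2, a relative of Ndufa12 that acts late in assembly, read 167, 197, 129 and 108, log2 −0.24 in heart and 0.26 in muscle. Ndufaf7, a methyltransferase, read 102, 107, 57.4 and 61.3, log2 −0.07 in heart and −0.09 in muscle. Ndufaf1, part of the complex that assembles the membrane arm, was the factor above 0 in heart, with 368, 330, 460 and 452 (log2 0.16). Its knockout heart was above its control heart in all 9 settings.

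Ndufa4, now assigned to cytochrome oxidase, read 3157 in knockout heart, 3465 in control heart, 3850 in knockout muscle and 3560 in control muscle, log2 −0.13 in heart and 0.11 in muscle. Ndufa4l2, its hypoxia-inducible relative, read 79.7, 72.5, 70.8 and 79.0, log2 0.14 in heart and −0.16 in muscle. Neither reached 1.5-fold in either tissue.

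**Figure D3:**
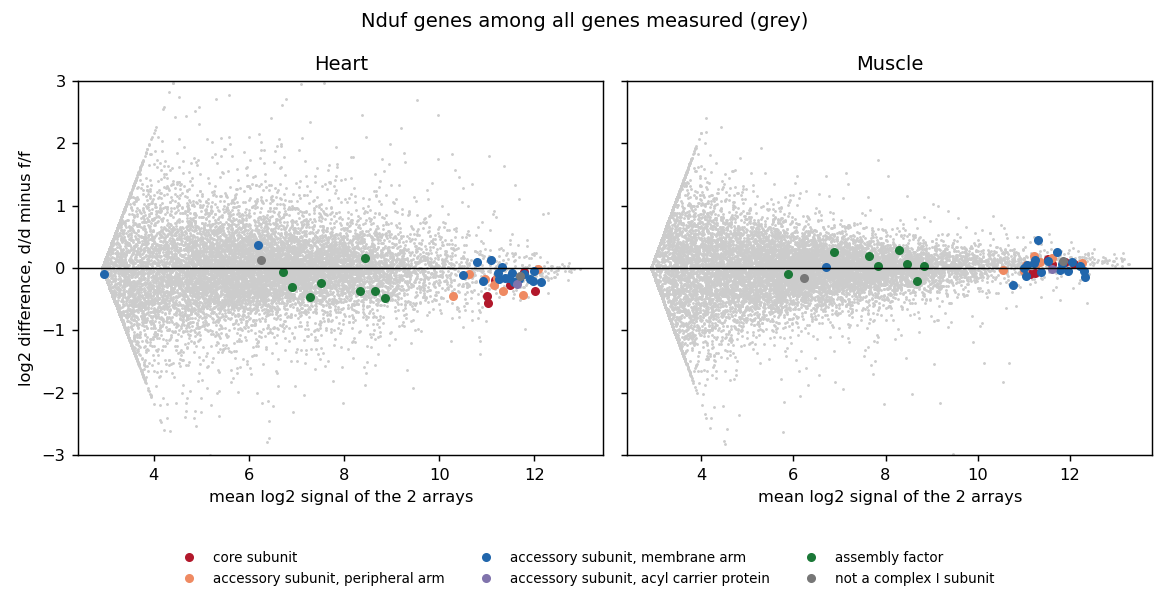
Log2 difference between knockout (d/d) and control (f/f) on the vertical axis against the mean log2 signal of the 2 arrays compared on the horizontal axis, for heart and muscle. Grey points are all genes measured, of which those beyond 3 either way are not shown, and coloured points are Nduf genes by role: most subunits lie at high signal, 30 of 34 below 0 in heart and 13 of 33 in muscle, where the count depends on the scaling.

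In muscle the subunits lay around 0. Of 33 measured, 13 were below 0 (23 with the values as deposited), the median was 0.044 and the range was −0.27 to 0.45. Over all 14256 genes 50.4% were below 0 with a median of −0.00295, and of the 161 other bright genes 18.6% were below 0 with a median of 0.10. The sign of the subunit median turned with the scaling, to −0.048 with the values as deposited, −0.017 with quantile normalization and −0.0049 with cyclic loess, so no direction is given for muscle. No subunit reached 1.5-fold, against 10.8% of genes lower and 9.06% higher. By role the medians were 0.06 for core, 0.07 for peripheral and 0.03 for membrane accessory subunits.

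Ndufs5 had the highest muscle difference, 2973 in knockout against 2170 in control (log2 0.45, 1.37-fold). Ndufb8, a membrane arm subunit often used as a marker of assembled complex I, read 3702 in knockout and 3099 in control muscle, log2 0.26, but its other, dim probe set read −1.13. Ndufa7 read 2561 in knockout and 2244 in control muscle, log2 0.19, and all 5 of its probe sets were above 0. At the other end, Ndufb3 read 1601 in knockout and 1925 in control muscle (log2 −0.27), Ndufa13 read 4886 and 5408 (−0.15), and Ndufb7 read 2010 and 2202 (−0.13). Ndufa10 read 2436 and 2312, log2 0.08, and −0.53 on a dim probe set.

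In muscle 2 of 8 assembly factors were below 0, and their median was 0.050. Of 3994 other genes in their signal range 51.8% were below 0 with a median of −0.01. The factors' median was −0.042 with the values as deposited. The 2 tissues together gave 17 of 33 subunits (51.5%) below 0 in heart and above 0 in muscle, against 27.4% of all 12711 genes measured in both. Among the 161 other bright genes the share was 50.3%, close to that of the subunits. Among assembly factors this held for 5 of 8, and for 25.5% of 3985 other genes in their signal range. A muscle sign that turns with the scaling turns this count too.

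The other genes of the pathway were read from lists of complexes. Of 20 complex I genes not named Nduf, mostly assembly factors, 12 were on the arrays. None of the core subunits encoded by mitochondrial DNA was among the 12. The heart median of the 12 was −0.07, with 7 of 12 below 0. In heart 1 of the 12 reached 1.5-fold, Tmem186, at 30.5 in knockout and 59.3 in control (1.95-fold lower). In muscle their median was 0.20, and Acad9, an assembly factor related to acyl-CoA dehydrogenases, read 158 in knockout and 86.1 in control (1.84-fold higher). The heart medians of the other respiratory complexes were −0.21 for complex II with 4 of 4 below 0, −0.22 for complex III with 9 of 9, −0.13 for complex IV with 11 of 16 and −0.12 for ATP synthase with 15 of 17. Mitochondrial ribosomal proteins had a median of −0.15 with 57 of 76 below 0. In muscle the medians were 0.09, 0.06, 0.09, 0.10 and 0.02 in that order. No test of the difference between complex I and these lists was run.

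Markers of several other cell types also differed between the hearts. All 7 fibroblast markers were higher in knockout heart, with a median of 0.99 and a summed signal of 10530 against 5315. Of 8 macrophage markers, 7 were higher, with a median of 0.52 and a summed signal of 2743 against 2072. Of 5 endothelial markers, 3 were higher, with a median of 0.42, and of 8 cardiac muscle markers 5 were lower, with a median of −0.13. None of these fibroblast, macrophage or endothelial markers was at the floor on any array. Both measured adipocyte markers were lower, with a median of −1.17 (Adipoq 10.4 in knockout and 46.6 in control heart), and the 2 measured red cell markers had a median of −0.30 with 1 lower. Of 7 genes of slow or oxidative fibres, 6 were lower in knockout heart with a median of −0.02, while Myh7 was 3.47-fold higher. In muscle all 7 fibroblast and all 8 macrophage markers were lower in knockout, with medians of −0.74 and −0.61. Of the slow or oxidative fibre genes 5 of 7 were lower in knockout muscle, with a median of −0.23, among them Myl2 (189 against 764) and Tnnc1 (98.6 against 216). The part of the cell mix in the subunit differences was not tested.

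Heart and muscle were also compared within each genotype; these comparisons use the same 4 arrays as those above. In control mice the subunits had a median heart minus muscle difference of −0.03, with 20 below and 14 above 0. Ndufb1 was the subunit at least 1.5-fold lower in heart (64.5 against 104, 1.62-fold) and 0 were higher, against 17.9% of genes lower and 24.5% higher. In knockout mice the median was −0.26, with 31 of 33 below 0 and 0 at 1.5-fold either way, against 21.9% of genes lower and 26.1% higher. The signs of both medians depended on the scaling: with the values as deposited they were 0.39 in control and 0.20 in knockout, and with cyclic loess 0.15 and 0.026, against 0.074 and −0.049 with quantile normalization. Averaged over genotypes, Ndufb1 (−0.52), Ndufa2 (−0.38) and Ndufs3 (−0.35) were the lowest in heart and Ndufa10 (0.35), Ndufb7 (0.19) and Ndufv3 (0.14) the highest.

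**Figure D4:**
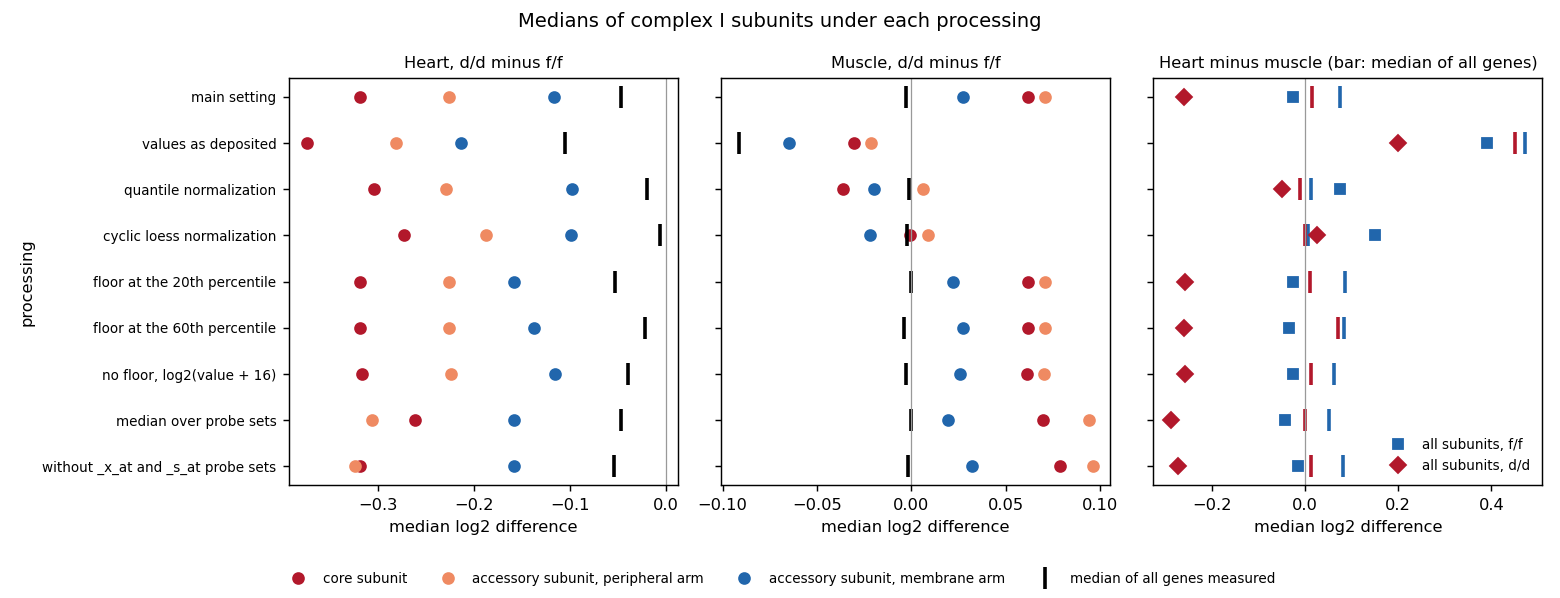
Median log2 difference (horizontal axis) of the subunits under the main processing and 8 alternatives (rows), by role for heart and muscle, knockout (d/d) minus control (f/f), and for all subunits in heart minus muscle; short vertical bars are medians of all genes measured. Each role's median lies below 0 in heart in every setting, from −0.37 to −0.098, while in muscle and in heart minus muscle the signs turn with the scaling.

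Of the 8 assembly factors, 2 were at least 1.5-fold lower and 4 higher in control heart than in control muscle, and 2 were lower and 1 higher in knockout mice. The shares over all genes were 17.9% lower and 24.5% higher in control and 21.9% and 26.1% in knockout mice, and with the values as deposited the median of all genes moved from 0.08 to 0.47 and from 0.01 to 0.45. Ndufaf5 and Ndufaf6 were lower in heart in both genotypes, by log2 −0.76 and −0.63 in control and by −1.10 and −1.38 in knockout, the latter 2.61-fold for Ndufaf6. Ndufaf7 was higher in heart in both, by 0.80 in control and 0.83 in knockout. Ndufaf2, Ndufaf3 and Ndufaf8 were at least 1.5-fold higher in control heart than in control muscle (1.84-fold, 1.95-fold and 1.60-fold) and by 1.30-fold, 1.33-fold and 1.09-fold in knockout. No test of the difference between the genotypes was possible with 1 array a group.

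A single model with terms for genotype and tissue was fitted with limma over 13497 genes. The disagreement between tissues left 1 residual degree of freedom. Limma drew each gene's error towards a variance shared by all genes, with 4.6 prior degrees of freedom. The standard errors below are thus not the disagreement of that gene alone. For genotype, 0 of the 13497 genes (0.0%) had an adjusted p below 0.05. An unadjusted p below 0.05 was reached by 570 of the 13497 genes and by 0 of the 43 fitted Nduf genes. With 1 residual degree of freedom, a count of 0 does not show that the genes were alike. The genotype effect over both tissues was log2 −0.33 for Ndufs1 with a standard error of 0.28, and −0.26 for Ndufv1 with a standard error of 0.27. For tissue, 1840 genes (13.6%) were called and 0 of the 43 fitted Nduf genes (3 at an unadjusted p below 0.05, or 6.98%, against 32.1% of all genes), of which Ndufaf5 was nearest (limma adjusted p = 0.079). With the floor at the 60th percentile Ndufaf5, Ndufaf6 and Ndufaf7 were called, among 2668 genes. No gene was called for tissue when the median over probe sets was taken or the floor set at the 20th percentile.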

How the data were processed

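Values were analysed from 4 arrays, 1 a group, grouped by title and tissue label. The authors deposited 1 linear intensity per probe set and array; its making from the scans, and any scaling, are steps not given in the sources used. Deposited intensities ran from 0 to 9375. The 64 control probe sets were left out, and factors of 0.850 to 1.22 brought the arrays to 1 common 2% trimmed mean. The floor was the mean of the arrays' 40th percentiles, and values above it made up 58.0% to 61.1% of an array. Where 1 array was at the floor, a difference is a bound. A gene counted as measured where at least 1 array of the comparison was above the floor. Depth has no meaning for arrays; their number limits the precision.

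Genes were named by the platform annotation, in which 932 probe sets had several symbols and 9160 none; these were not named. The fit used limma 3.58.1 in R 4.3.3 on genes that passed the floor on 2 or more arrays, with p-values adjusted by Benjamini-Hochberg. Its script was also run on simulated data, whose outcome is not given here and lends the fit no support. Members named were the core subunits, every Ndufaf gene, Ndufa4 and Ndufa4l2, the 3 lowest and 3 highest subunits of each comparison, and members whose probe sets had both signs and differed by over 1.5 times; others are named for their role. Members and lists were chosen with earlier results of these data known. The 8 alternatives were values as deposited, quantile and cyclic loess normalization, floors at the 20th and 60th percentiles, log2(value + 16) with no floor, the median over probe sets, and no _x_at or _s_at probe sets.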

Additional observations from a re-analysis of the deposited data

Results flagged for a closer look

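In the main setting, the medians of 2 groups of genes had opposite signs in the 2 tissues; the subunits' muscle median was below 0 in 3 of the 8 alternatives and the assembly factors' in 1. Complex I subunits had a median log2 difference, knockout (d/d) minus control (f/f), of −0.17 in heart and 0.044 in muscle. Other genes with a mean signal at or above the lower quartile of the subunits also had opposite signs. Their medians were −0.05 in heart and 0.10 in muscle, so the opposite signs are not particular to the subunits. Assembly factors had a median of −0.34 in heart and 0.050 in muscle. A dim probe set of Ndufs8 was at −1.18 in heart (10.3 in d/d, 23.4 in f/f) and 2.19 in muscle (50.3 in d/d, 11.0 in f/f), while the bright probe set of Ndufs8 read −0.37 and 0.09. With 1 array a group none of these differences between tissues was tested.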

How the results depend on the processing

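The heart median of the subunits stayed below 0 in all 8 alternatives (−0.23 to −0.13, 27 to 31 subunits below 0), as did that of the assembly factors (−0.39 to −0.27). Counts of 0 also held in all 8 for subunits 1.5-fold higher in heart, and for subunits 1.5-fold higher or lower in muscle. For genotype limma called 0 genes of any kind in all 8, so the count of 0 among Nduf genes follows from that. The results that follow moved, and the cause was not tested. With the values as deposited, the median of all genes in heart minus muscle moved from 0.08 to 0.47 in control (f/f) mice and from 0.01 to 0.45 in d/d. The subunits' muscle median was −0.0049 with cyclic loess, −0.017 with quantile normalization and −0.048 as deposited. The number below 0 in muscle was 21 with quantile normalization, 23 as deposited and 8 without _x_at and _s_at probe sets. The factors' muscle median was −0.042 as deposited. As deposited, 1 subunit was at least 1.5-fold lower in heart. The median of heart minus muscle in knockout (d/d) mice was 0.026 with cyclic loess, −0.049 with quantile normalization and 0.20 as deposited. In f/f it was 0.15, 0.074 and 0.39. Subunits at least 1.5-fold higher in heart than muscle numbered, in d/d, 1 with the floor at the 20th percentile, 1 with the median over probe sets and 2 as deposited, and in f/f 1, 1 and 7, with 2 by cyclic loess and 1 by quantile normalization. Those at least 1.5-fold lower numbered, in d/d, 2 with the median over probe sets and 1 without _x_at and _s_at probe sets, and in f/f 2 with the median over probe sets, 0 with log2(value + 16) and 0 as deposited. Shares of all genes at 1.5-fold were taken in the main setting alone, so these counts have none beside them. Nduf genes called for tissue by limma numbered 3 with the floor at the 60th percentile, 2 with log2(value + 16) and 3 as deposited, among 2668, 2582 and 3341 genes called in all, against 0 among 1840 in the main setting. For tissue limma called 0 genes in all when the median over probe sets was taken or the floor set at the 20th percentile. No replicate could be left out, and no paired analysis was possible because each group holds 1 array. Signals near the floor, as for Ndufb4, limit what can be read.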
